A study of Rattus norvegicus with 6 samples.

Results

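Transferrin (Tf), hemopexin (Hpx), the transferrin receptor (Tfrc), heme oxygenase 1 (Hmox1) and ceruloplasmin (Cp) are 5 genes of iron and heme traffic, and all 5 were among the 14506 genes named on the arrays. They were chosen by name for their differences between the ages, as probe sets with 1 gene symbol, so these differences are a description and carry no test. Each gene has 1 such probe set. The study used primary cultures prepared from the testes of Rattus norvegicus at 2 ages, and the labels call the cells Sertoli cells. Cells of 9-day-old rats, placed by the labels in the proliferation phase, and of 21-day-old rats, placed after it, were grown in DMEM/F12 and 10% fetal bovine serum, with a change of medium to purify them. No strain, genotype or treatment beyond the culture is given for either age. Total RNA of 3 samples per age was read on 6 Affymetrix arrays; they are called cultures here, although nothing says that they came from separate ones. The type recorded for the series is genome binding by array, and the values are read as expression because the labels describe it. The study sought age differences in genes of cell division and cell death.

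Iron travels in blood bound to transferrin, which cells take up through the transferrin receptor. Germ cells behind the blood-testis barrier are cut off from serum transferrin, and Sertoli cells secrete their own, which makes Tf a classic marker of Sertoli cell function. Hemopexin binds free heme and carries it to the receptor Lrp1, heme oxygenase 1 opens the heme ring and frees its iron, and ceruloplasmin is a copper enzyme that oxidises iron so that transferrin can bind it.

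Tf and Hpx were the members with higher signal in every older culture, and the bases before their starts are shown here because these are the promoters of the pair that was higher at 21 days. The sequences are the 250 bases before the gene start in RefSeq (GRCr8), 5′ to 3′ on the gene's strand, and 4 of the 5 members had an entry. Tf lies on the minus strand, with these bases at chr8:112695377-112695626, and Hpx on the minus strand, with these bases at chr1:169352156-169352405. Capitals mark matches to any of 7 motifs searched on both strands: CANNTG (E-box), TGACGTCA (CRE), TTNNGNAA (C/EBP), TGANTCA (AP-1), TGACNNNGC (core of the antioxidant response element), the CCAAT box and the TATA box (TATAAA).
Tf: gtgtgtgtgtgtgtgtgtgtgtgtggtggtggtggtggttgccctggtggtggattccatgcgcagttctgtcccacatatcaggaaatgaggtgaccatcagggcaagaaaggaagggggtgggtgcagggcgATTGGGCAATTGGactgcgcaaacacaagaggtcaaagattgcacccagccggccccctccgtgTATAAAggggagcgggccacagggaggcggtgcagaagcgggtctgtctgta
Hpx: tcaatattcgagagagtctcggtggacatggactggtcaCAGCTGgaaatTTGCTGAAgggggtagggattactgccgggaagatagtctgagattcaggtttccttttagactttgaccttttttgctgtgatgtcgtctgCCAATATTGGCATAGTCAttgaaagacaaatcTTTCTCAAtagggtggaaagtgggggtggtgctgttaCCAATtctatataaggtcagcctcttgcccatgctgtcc

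The Tf stretch holds TATAAA at 52 to 47 bases before the start. Further up it holds a cluster in which a C/EBP match at 115 to 108, an E-box at 110 to 105 and 2 CCAAT matches on the opposite strand overlap. The Hpx stretch holds an E-box at 211 to 206, C/EBP matches at 200 to 193 and 76 to 69, and 3 CCAAT matches. It also holds the antioxidant core at 99 to 91, which overlaps 1 of the CCAAT matches by a base. E-box, C/EBP and CCAAT letters are thus in both stretches. These letters are common, since of 33469 promoter stretches of this length 65.54% hold the E-box, 37.19% the C/EBP motif and 34.02% CCAAT. The antioxidant core is in 10.08% and the TATA box in 12.93%. Among the other members with an entry, the Tfrc stretch holds E-box and CCAAT matches, and the Cp stretch C/EBP, CCAAT and TATAAA matches. Only the letters given above were searched, so near forms, such as tatataa close to the Hpx start, carry no capitals.

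All values are log2 signals from RMA, a method that corrects, normalizes and summarises array signals, and probe sets of different genes are not compared as amounts of transcript. Array medians ran from 3.78 to 3.87, with upper quartiles from 6.04 to 6.12 and lower quartiles from 2.61 to 2.65. Across all genes the median difference, 21 minus 9 days, was -0.0093, 46.55% of genes were higher at 21 days, and the median standard error was 0.112. In limma 0 of 14506 genes (0.0%) passed an adjusted p under 0.05, with or without the replicate number as a block. Before adjustment 431 genes (2.97%) had a p under 0.05, and 1122 (7.73%) with the block. Replicate 3 stood apart at both ages in markers of peritubular myoid and smooth muscle cells. The mean of these 11 genes was 9.81 (9 days) and 9.54 (21 days) there and between 7.90 and 8.62 in the other 4 arrays.

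The cell type label was compared with marker genes. Of 17 measured Sertoli cell markers other than Tf, 4 had means above the upper quartiles of all arrays, Wt1, Gata4, Clu and Ctsl. Another 6 lay below the medians of all arrays, among them the defining genes Amh (3.14 at 9 days and 3.35 at 21 days), Fshr (2.57 and 2.89) and Cldn11 (3.05 and 3.42). Of the 11 peritubular myoid and smooth muscle genes, 9 lay above the upper quartiles. Acta2, smooth muscle actin, was at 12.32 and 12.07. Of 9 measured Leydig cell markers 3 lay above the upper quartiles and 5 below the medians. Star was at 11.01 and 11.13 and Cyp1b1 at 9.48 and 9.40. Whether low signals exceed background is unknown, since no detection calls were used here.

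Tf had the second largest difference of all genes in absolute size. In the 9-day-old cultures it was at 5.09, 6.16 and 6.19 (replicates 1, 2 and 3), and in the 21-day-old cultures at 8.33, 8.76 and 11.13. All 3 older cultures lay above all younger ones, by a gap of 2.14 between the nearest arrays, and replicate 3 of the older age stood well above the rest. The means were 5.82 ± 0.63 and 9.41 ± 1.51 (SD, n = 3 each), a log2 difference of 3.59 ± 0.78 (SE) or 12.1-fold. Between arrays of the same number the difference was 3.24, 2.60 and 4.94. It was 2.73 without 21-day-old replicate 3, so the older cultures remained higher but by less. Next to Tf in the order of differences stood Stmn2 (3.80), a microtubule regulator, and Mpzl2 (2.34), an adhesion gene. In cultures measured whole, more cells that express a gene and more RNA per cell cannot be told apart.

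Hpx was also higher in each older culture. The 9-day-old cultures were at 6.49, 7.97 and 7.41 and the 21-day-old cultures at 8.99, 9.84 and 9.12. Replicate 1 was lowest and replicate 2 highest at both ages, and the ages did not overlap, with a gap of 1.03. The means were 7.29 ± 0.75 and 9.32 ± 0.45 (SD, n = 3 each), a difference of 2.03 ± 0.42 (SE) or 4.08-fold, the eighth largest upward difference of all genes. Pairs of the same number differed by 2.51, 1.87 and 1.71. Since the numbers carried much of the spread, the SE with the number as a block was 0.17 for Hpx, against 0.45 for Tf. Leaving out any array gave differences from 1.63 to 2.37. Among all genes, 2.74% were higher at 21 days without overlap and 0.352% at least 2-fold higher, which the choice of Tf and Hpx fixes here.

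**Figure D1:**
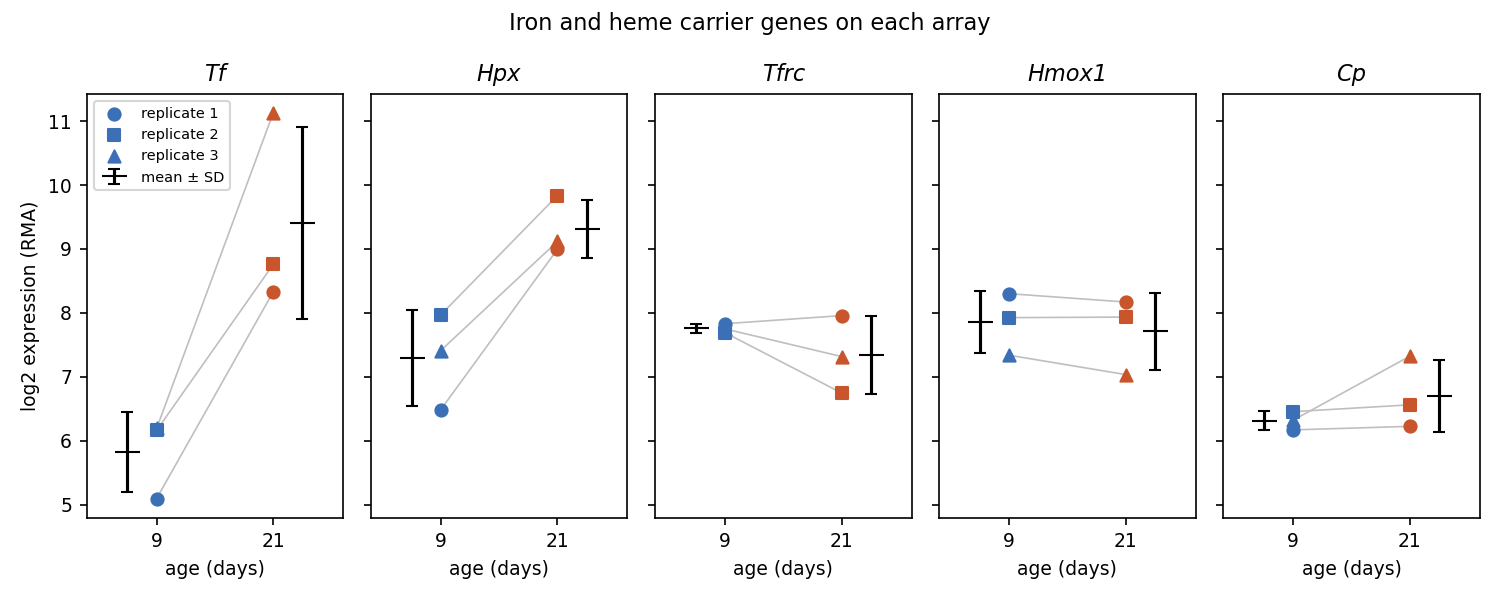
Log2 expression (RMA) of Tf, Hpx, Tfrc, Hmox1 and Cp on the 3 arrays of 9-day-old (blue) and the 3 of 21-day-old (orange) cultures. Shapes give the replicate number, grey lines join arrays of the same number, and black bars are mean ± SD. Tf and Hpx do not overlap between the ages, while Tfrc, Hmox1 and Cp do.

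Tfrc, the receptor that takes up iron-loaded transferrin, did not follow its ligand. It was at 7.83, 7.69 and 7.75 in the 9-day-old cultures, close together, and at 7.96, 6.75 and 7.32 in the 21-day-old cultures. The older cultures spread on both sides of the lowest younger value, with 1 of them, replicate 1, above all younger ones. The means were 7.76 ± 0.07 and 7.34 ± 0.61 (SD, n = 3 each), a difference of -0.42 ± 0.30 (SE). Pairs of the same number differed by 0.13, -0.94 and -0.43. The difference was -0.12 without 21-day-old replicate 2 and -0.73 without 21-day-old replicate 1.

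Hmox1, which degrades heme and is induced by heme and oxidative stress, differed more between replicate numbers than between ages. It was at 8.30, 7.93 and 7.34 in the 9-day-old cultures and at 8.17, 7.93 and 7.03 in the 21-day-old cultures. At both ages replicate 1 was highest and replicate 3 lowest, 0.78 and 1.02 below the mean of the others of its age. The age difference was -0.14 ± 0.37 (SE), or ± 0.088 with the number as a block. Pairs differed by -0.13, 0.0088 and -0.30. The sign turned without 21-day-old replicate 3 (0.20) or 9-day-old replicate 1 (0.081).

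Cp was near the same level in all but 1 of the cultures. It was at 6.17, 6.45 and 6.32 in the 9-day-old cultures and at 6.22, 6.56 and 7.32 in the 21-day-old cultures. Replicate 3 of the older age stood 0.93 above the other older cultures, and these overlapped the younger ones. The difference was 0.39 ± 0.28 (SE), and 0.078 without that array. Pairs differed by 0.056, 0.11 and 1.00.

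**Figure D2:**
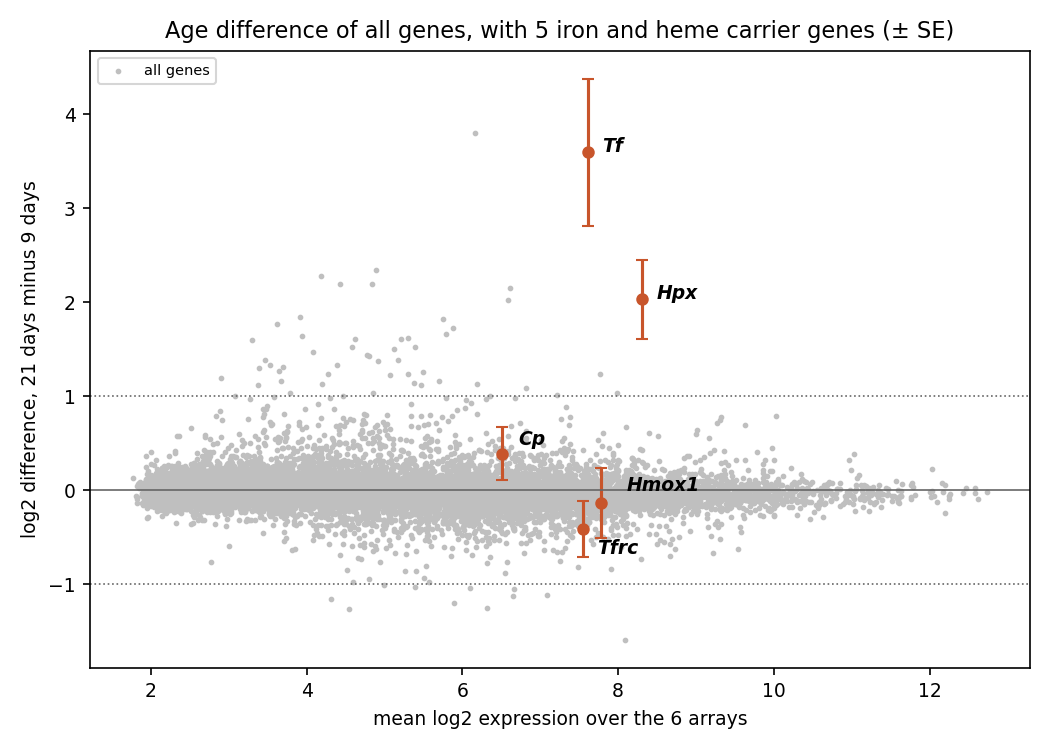
Log2 difference, 21 days minus 9 days, against the mean log2 expression over the 6 arrays, for all 14506 genes (grey) and for Tf, Hpx, Tfrc, Hmox1 and Cp (orange, ± SE). Dotted lines mark a 2-fold difference; Tf (3.59) and Hpx (2.03) lie above it, and Cp (0.39), Hmox1 (-0.14) and Tfrc (-0.42) within the lines.

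The 5 genes differed in their course over the 6 arrays. The nearest genes named below are the closest of all genes measured. That they lie nearer than another member is therefore largely fixed by the choice. Likeness was measured as the root mean square difference between log2 values centred on each gene's own mean, over all 6 arrays. Between Tf and Hpx it was 1.26. The nearest to Tf were Mpzl2 (0.74), Testin (0.76), a gene for another secreted Sertoli cell protein, and Tmem184a (0.79). These share with Tf the high value in 21-day-old replicate 3, which stood above the mean of the other older cultures by 2.59 (Tf), 2.48 (Mpzl2), 2.78 (Testin) and 2.55 (Tmem184a). For Hpx the same array lay at -0.30 against the others.

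Nearest to Hpx were the gelatinase gene Mmp9 (0.37), the membrane peptidase gene Mme (0.50) and the chemokine gene Cxcl13 (0.68). Mmp9 differed by 2.15 between the ages and Mme by 1.82. Tfrc was followed most closely by the chloride transporter gene Clcn5 (0.15), Lsp1 (0.15) and Depdc1b (0.16), which were all lowest in 21-day-old replicate 2. Hmox1 was nearest to the ribosomal protein gene Rps25 (0.083), Tamm41 (0.10) and Ndufb6 (0.10), a subunit of respiratory complex I. These were lowest in 21-day-old replicate 3, as was Hmox1.

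Nearest to Cp of all genes was Alas1, the rate-limiting enzyme of heme synthesis outside red cells, at a root mean square difference of 0.072. Alas1 was at 7.32, 7.76 and 7.61 in the 9-day-old cultures and at 7.57, 7.83 and 8.70 in the 21-day-old cultures. Both genes were lowest in 9-day-old replicate 1 and highest in 21-day-old replicate 3, and their other values moved alike. Alas1 differed by 0.47 ± 0.31 (SE) between the ages and by 0.14 without 21-day-old replicate 3. Arap2 (0.084) and Heyl (0.089) came next.

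Other genes of iron and heme handling differed less than Tf and Hpx, which the choice of these 2 for their differences largely fixes. From 7 lists written from general knowledge, 78 genes besides the 5 were measured, and they split into 38 higher and 40 lower ones around a median of -0.0021. None of the 78 passed an adjusted p under 0.05 (limma, 0.0% of all genes), and none differed 2-fold, against 0.352% of all genes that were 2-fold higher and 0.0758% that were 2-fold lower. Without overlap between the ages, 1 was higher and 2 were lower, against 2.74% and 2.98% of all genes. Counts this small do not set the 78 genes apart from all genes.

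Iron uptake and reduction comprised 15 measured genes, 11 higher and 4 lower, with a median of 0.051. Steap3, the ferrireductase that acts on iron released from transferrin in endosomes, differed by 0.34 ± 0.24 (SE), and Slc11a2, the transporter that then moves iron out of the endosome, by 0.23 ± 0.23. Both shrank without 21-day-old replicate 2, to 0.12 and 0.084. With the number as a block their SEs were 0.10 and 0.085. Pairs of the same number differed by 0.11, 0.52 and 0.39 for Steap3 and by 0.39, 0.099 and 0.22 for Slc11a2. Steap4, a related metalloreductase, was 1 of the 2 lower without overlap. It was at 4.51, 4.42 and 4.37 in the 9-day-old cultures and 4.03, 4.20 and 4.15 in the 21-day-old cultures, a difference of -0.31 ± 0.08.

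Iron storage and export comprised 9 genes with a median of -0.0012. The ferritin chains Fth1 and Ftl1, which store iron, were at 11.02 ± 0.34 and 12.46 ± 0.04 at 9 days and at 11.18 ± 0.30 and 12.48 ± 0.01 at 21 days (SD, n = 3 each). The iron exporter gene Slc40a1 (ferroportin) differed by 0.47 ± 0.25 (SE), or 0.26 without 9-day-old replicate 3, with pairs at 0.50, -0.26 and 1.15. Heph, a ferroxidase related to ceruloplasmin, was the other gene lower without overlap. It was at 3.28, 3.27 and 3.71 in the younger cultures and at 3.24, 3.04 and 3.02 in the older ones, a difference of -0.32, and of -0.17 if 9-day-old replicate 3 is left out. Meltf, a membrane relative of transferrin, differed by -0.22, or -0.065 without 9-day-old replicate 3.

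The 11 genes of iron sensing and the hepcidin axis had a median of -0.09, with 2 higher and 9 lower, and the median turned to 0.039 without 9-day-old replicate 3. The iron regulatory protein genes Aco1 and Ireb2, whose products bind ferritin and Tfrc transcripts, differed by -0.0029 ± 0.10 and -0.028 ± 0.22 (SE) and are named beyond the rule, after their values were seen. Fbxl5, which targets them for degradation when iron is plentiful, differed by -0.20 ± 0.10, or -0.12 without 21-day-old replicate 2. Bmp6, an inducer of hepcidin, and the hypoxia factor gene Epas1 differed by -0.25 and -0.22, and both signs turned without 9-day-old replicate 3 (0.036 and 0.12).

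Heme carriers and transporters besides Hpx numbered 13, with 8 higher and a median of 0.014. Flvcr2, a transporter linked to heme and choline, was at 3.12, 3.11 and 4.33 in the older cultures, the last of these being replicate 3, and differed by 0.50 ± 0.35 (SE), or 0.093 without that array. Slc48a1, which moves heme out of lysosomes, differed by 0.26 ± 0.17, or 0.094 without 9-day-old replicate 3, and Abcc5, a heme exporter gene, by 0.30 ± 0.29, or 0.0 without 21-day-old replicate 3. The hemopexin receptor gene Lrp1 was at 8.90 ± 0.24 and 8.80 ± 0.04, and Hp, which encodes the hemoglobin binder haptoglobin, at 3.14 ± 0.0026 and 3.09 ± 0.10 (SD, n = 3 each), both also named after their values were seen.

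Heme breakdown genes besides Hmox1, 4 in number, differed by -0.07 to 0.20. Blvrb, a biliverdin reductase, differed by 0.20 and turned without 9-day-old replicate 3 (-0.026), and the constitutive heme oxygenase gene Hmox2 differed by -0.07. Por, the reductase that supplies electrons to heme oxygenases, differed by 0.12 ± 0.07. Of 12 heme synthesis genes, 5 were higher and 7 lower. After Alas1, the largest difference was in Ppox, which encodes a late enzyme of the pathway, at -0.32 ± 0.18 (SE), or -0.16 without 21-day-old replicate 1. Tspo, a mitochondrial membrane protein gene, differed by 0.16 ± 0.46 and by -0.15 without 21-day-old replicate 2. The erythroid gene Alas2 was the 1 higher without overlap, at means of 2.65 and 2.76 near the lower quartiles. Iron-sulfur cluster and mitochondrial iron genes, 14 in number, had a median of -0.0092 and a range from -0.20 (Hscb) to 0.16 (Slc25a37). The mitochondrial iron importer genes Slc25a37 and Slc25a28 (-0.16) turned sign without 9-day-old replicate 3 (-0.073) and 9-day-old replicate 2 (0.075), and Hscb differed by -0.0014 without 21-day-old replicate 3.

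**Figure D3:**
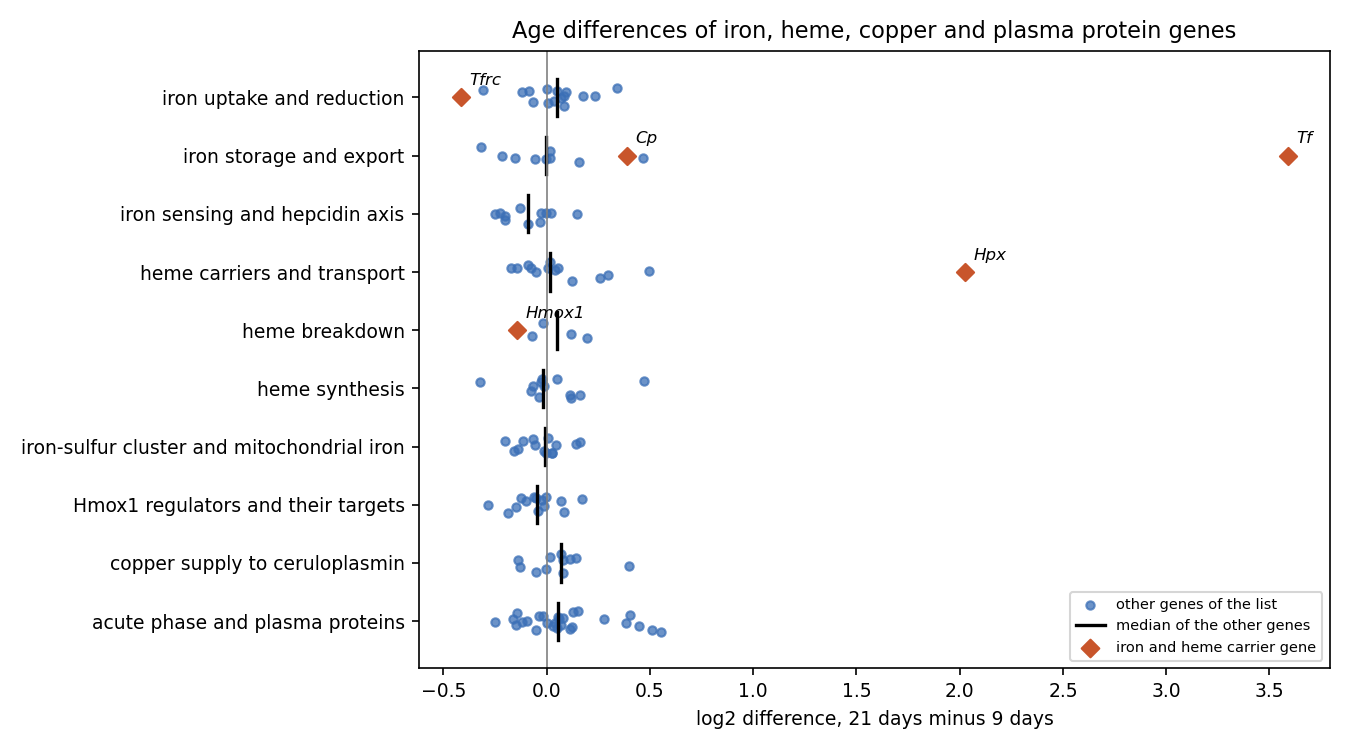
Log2 differences, 21 days minus 9 days, of single genes (blue points) in 10 lists of iron, heme, copper and plasma protein genes, with list medians as black bars. Tf, Hpx, Tfrc, Hmox1 and Cp (orange diamonds, each drawn once) are left out of the medians, and the other genes lie between -0.32 and 0.55.

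The regulators and targets that go with Hmox1 also lay close to 0. Their median was -0.047, and 3 of 14 were higher and 11 lower. Nfe2l2, the activator of Hmox1, differed by -0.024 ± 0.13 (SE) and Bach1, its repressor, by -0.13 ± 0.09, both named after their values were seen. The largest differences were -0.28 ± 0.34 for the cystine transporter gene Slc7a11 (-0.023 without 9-day-old replicate 2) and -0.19 ± 0.24 for Gclm, a subunit of glutathione synthesis. Next was the quinone reductase gene Nqo1 (0.17 ± 0.39). The sign turned for Gclm without 21-day-old replicate 2 (0.040) and for Nqo1 without 9-day-old replicate 3 (-0.19). Copper handling genes, which serve ceruloplasmin among others, had 7 of 11 members higher and a median of 0.067. Slc31a2, a copper transporter gene, was at 5.84, 5.71 and 6.72 in the older cultures. The last of these, replicate 3, was also the high one for Cp. Slc31a2 differed by 0.40 ± 0.27, or 0.086 without the array. The copper chaperone genes Cox17 and Ccs differed by 0.14 and -0.14, or by 0.074 without 9-day-old replicate 3 and -0.0066 without 21-day-old replicate 3.

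Tf, Hpx and Cp are also plasma proteins that the liver secretes, and other genes of that kind were measured. Of 27 acute phase and plasma protein genes besides the 3, 18 were higher at 21 days, with a median of 0.056, and 1 was higher without overlap, against 46.55% and 2.74% of all genes. The cytokine gene Il6 differed by 0.55 ± 0.50 (SE), or 0.19 without 9-day-old replicate 3, the protease inhibitor gene Serpina3n by 0.51 ± 0.51, with the sign turned without 21-day-old replicate 2 (-0.049), and the iron siderophore binder gene Lcn2 by 0.45 ± 0.30, or 0.12 without 9-day-old replicate 3. Of these 27 genes 0 passed over all genes, and 16 had means below the medians of all arrays.

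Markers of cell types that could supply these transcripts were read on the same arrays. All 11 hepatocyte markers lay below the array medians, and their mean was between 2.74 and 2.82 at 9 days and between 2.75 and 2.86 at 21 days. Alb, albumin, was at 2.52 and 2.65. Of 15 macrophage markers 14 lay below the array medians, including Cd163, the receptor for hemoglobin bound to haptoglobin (2.41 and 2.43), and the list mean ran from 2.93 to 3.06 at 9 days and from 2.95 to 3.01 at 21 days. Of 7 erythroid markers 5 lay below the array medians, with means from 3.10 to 3.17 and from 3.07 to 3.20. The part of these cell types in the signals of Tf, Hpx and Cp was not tested.

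Sertoli cell markers were highest on the array where Tf was highest. The mean of the 17 markers without Tf was 4.87, 4.96 and 4.83 in the 9-day-old cultures. In the 21-day-old cultures it was 4.99, 5.32 and 5.76, highest in replicate 3. The ages did not overlap, but the gap was narrow, between 4.99 (21-day-old replicate 1) and 4.96 (9-day-old replicate 2). This gap rests on Testin, which was at 4.25 and 2.97 on these arrays. Of the 17, 15 were higher at 21 days, with a median of 0.23, or 0.17 to 0.34 when single arrays were left out, and 4 were higher without overlap. Over all genes 46.55% were higher and 2.74% higher without overlap. The list was written with earlier results of these data known, so these counts are a description only. In 21-day-old replicate 3, 13 of the 17 stood above the mean of the other older cultures and 4 below, with a median of 0.37 and a range from -0.40 (Kitlg) to 2.78 (Testin), beside 2.59 for Tf. The highest after Testin were the androgen-binding protein gene Shbg (2.10), the inhibin subunit gene Inha (1.81) and Clu, clusterin (1.14), while the junction gene Cldn11 was at -0.20 and Aard at 0.15. Germ cell markers were also highest on that array. Their mean was 3.37 there and between 3.06 and 3.14 on the other 5 arrays, and 16 of 18 stood above the other older cultures. Of these 18, 15 had means below the medians of all arrays. The share of all genes that stood above the other older cultures was not counted beside either list. Peritubular myoid and smooth muscle markers were high on that array as well. Their mean was 9.54 there, against 8.43 and 7.90 in the other older cultures, and it was highest, at 9.81, in 9-day-old replicate 3. The part of any of these lists in the difference of Tf was not tested, and 0 of these markers passed an adjusted p under 0.05 in limma (0.0% of all genes).

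The Sertoli marker mean differed by 0.13, 0.35 and 0.93 between arrays of the same number. Tf differed by 3.24, 2.60 and 4.94 in these pairs, and Hpx by 2.51, 1.87 and 1.71. Peritubular myoid and smooth muscle markers differed by -0.064, -0.72 and -0.27 in the 3 pairs, with 10 of 11 lower at 21 days and a median of -0.32. This median was 0.042 without 9-day-old replicate 3, -0.017 without 21-day-old replicate 2 and -0.63 without 21-day-old replicate 3. Of 9 Leydig cell markers 5 were higher, and the middle difference of this list (its median) was 0.011. Single Leydig genes ran from -0.13 to 0.98, the latter being Hsd11b1, which activates glucocorticoids. The next largest was Cyp11a1 at 0.17, so the difference of Hsd11b1 was not shared by the list. Hsd11b1 was at 6.55, 6.47 and 5.52 in the younger and 7.44, 7.50 and 6.56 in the older cultures. Germ cell markers had 12 of 18 higher and a median of 0.05, which was -0.0071 without 21-day-old replicate 3, and endothelial markers 5 of 10 and a median of -0.021. The largest single differences in the germ cell, endothelial and muscle lists were 0.58 ± 0.24 (SE) for the meiotic gene Hormad1, -0.94 ± 0.55 for the VEGF receptor gene Flt1 and -0.70 ± 1.02 for the smooth muscle actin gene Actg2. Without 1 array Hormad1 differed by 0.34 (21-day-old replicate 3), Flt1 by -0.62 (21-day-old replicate 1) and Actg2 by 0.038 (9-day-old replicate 3), a turned sign. The part of these cell types in the difference of Tf or Hpx was not tested.

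**Figure D4:**
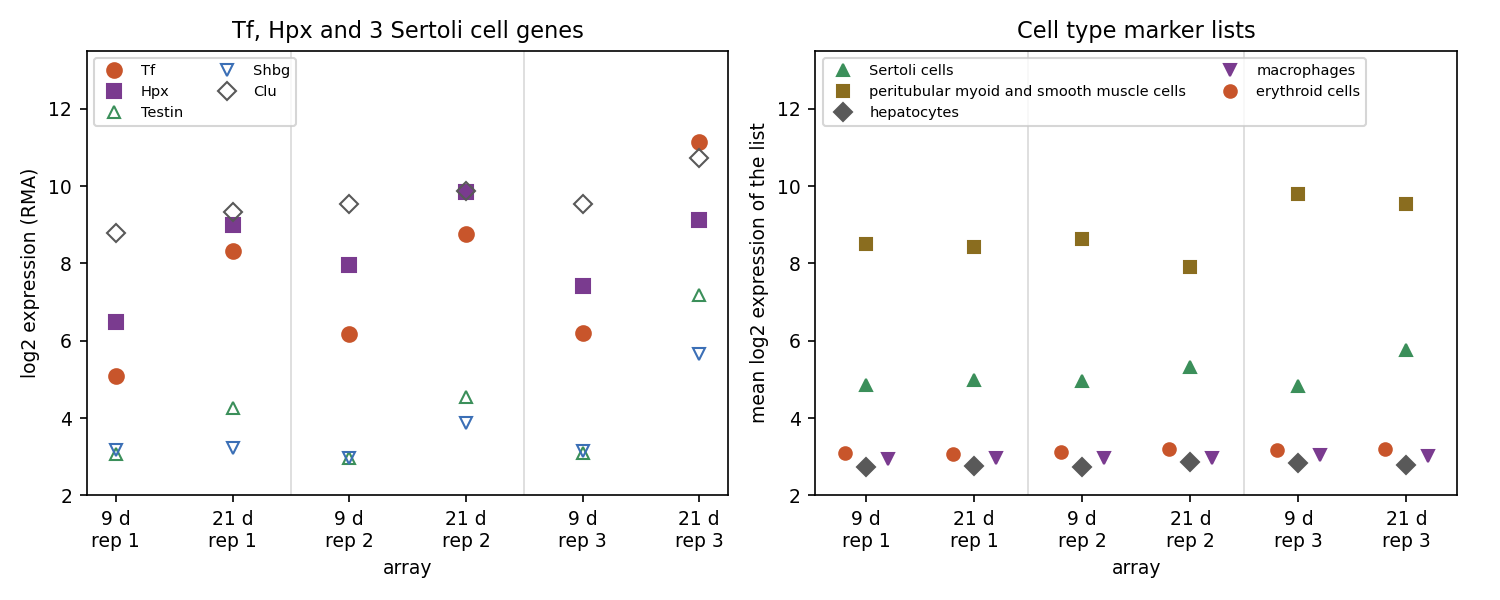
Left, log2 expression (RMA) of Tf, Hpx and the Sertoli cell genes Testin, Shbg and Clu on each array, with arrays of the same replicate number side by side (9 d, 9 days; 21 d, 21 days). Right, mean log2 expression of marker lists of 5 cell types on the same arrays, points of erythroid and macrophage lists set slightly aside. Tf, Testin, Shbg and Clu peak in 21-day-old replicate 3 and Hpx in 21-day-old replicate 2, while hepatocyte, macrophage and erythroid lists stay between 2.74 and 3.20. The Sertoli cell genes drawn are among the markers most raised on 21-day-old replicate 3. Of all 17 measured, 13 stood above the other older cultures there and 4 below.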

How the data were processed

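The deposited table holds log2 values of 29214 probe sets on 6 arrays, which the authors computed by RMA (per the submitters' processing notes); its version is not given in the sources used here. Of the probe sets, 15310 have 1 gene symbol in the platform annotation, and the one of highest mean was kept per gene, leaving 14506 genes. The number of arrays limits the precision, and nothing says that replicates came from separate rats, so p-values and SDs may measure technical spread.

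Ages were compared as 21 minus 9 days with lmFit and eBayes in limma 3.58.1 (R 4.3.3), with Benjamini-Hochberg adjustment over all genes at 0.05. The code was first run on simulated data with independent noise on each array. That run therefore does not cover the likeness of same-numbered arrays given next. Deviations of same-numbered arrays from their age means correlated at 0.44, 0.55 and 0.67 across genes, above the limit of 0.1. The numbers in the titles were therefore taken to pair the arrays, but the block was run only as an alternative. Each SE is from the fit without the block unless the block is named, and so leaves the pairing out. With the block the SE was 0.15 for Il6, against 0.50 without it, and 0.086 for Steap4, against 0.076. Members and the 18 lists, with the rule for named genes (3 largest differences per pathway list; 2 highest means and 2 largest differences per marker list; 3 nearest genes per member), were chosen with earlier results of these data known. Of the marker genes under this rule only some are given singly; Fth1, Ftl1, Alas2, Inha, Cd163, Kitlg, Aard, Wt1, Gata4, Amh, Fshr and Cldn11 are named beyond it, after their values were seen. Lists carry no set test. Promoter bases came from RefSeq, assembly GRCr8; no array build was used. Alternatives were the replicate block, other scalings, the mean over probe sets, a filter on mean, a trended robust prior, and leaving out arrays.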

Additional observations from a re-analysis of the deposited data

How the results depend on the processing

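With the replicate number as a block, after rescaling by quantiles or medians, with probe sets averaged, with a trended robust prior, with the upper 50% of genes by mean kept, or with arrays left out, limma called 0 genes and 0 list genes at an adjusted p of 0.05. Before adjustment 1122 genes had a p under 0.05 with the block and 189 of the 7253 genes of higher mean, against 431; fewer genes were tested in the latter. The block left the differences of the 5 members as they were, since each number occurs once per age, and changed no other call. Rescaling kept Tf between 3.57 and 3.66, Hpx between 2.01 and 2.06, Cp between 0.37 and 0.43, Hmox1 between -0.16 and -0.10 and Tfrc between -0.44 and -0.37. With single arrays left out, Tf ranged from 2.73 to 4.13, Hpx from 1.63 to 2.37, Cp from 0.078 to 0.63, Hmox1 from -0.40 to 0.20 and Tfrc from -0.73 to -0.12. Without both arrays numbered 3 these were 2.92, 2.19, 0.081, -0.061 and -0.41. Genes at least 2-fold higher numbered 51, or 30 in the upper 50%, 22 without both arrays numbered 3, and 83 and 79 without 21-day-old replicate 1 or 2; the cause was not tested. Without 1 of the arrays, 18 of the 30 genes the rule takes from pathway lists had a difference over 1.5 times smaller and 10 a turned sign, with Abcc5, at 0.0, counted among the latter; of the 29 it takes from marker lists these were 19 and 9. Medians of 3 lists moved by more than the spread between replicates: heme synthesis (0.092 without 21-day-old replicate 3), copper handling (-0.11 without 21-day-old replicate 2) and macrophages (0.016 without 9-day-old replicate 3). Detection limits are unknown, since background signals were not used here.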
